A study of Mus musculus with 2 samples.

Results

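Immune nuclei of mouse brown adipose tissue were 59 of the 4513 barcodes with under 20% of their transcripts from mitochondrially encoded genes, out of 6872 deposited barcodes. They were chosen by unique molecular identifiers (UMIs, each standing for 1 captured transcript molecule) of 12 genes. The sum Y held the 5 macrophage genes Mrc1, Cd163, F13a1, Cd209b and Csf1r, and the sum T held the 7 leukocyte genes Ptprc, Skap1, Cd226, Ptpn22, Ubash3b, Wdfy4 and Dock2. An immune nucleus had at least 3 UMIs over both sums, from at least 2 of the genes, and more of them than of the fibroblast sum (Pdgfra, Dcn, Lama2), the endothelial sum (Ptprb, Flt1, Cyyr1, Cdh5) and the adipocyte sum (Pparg, Acsl1, Ppara). Of the 59, 24 had Y above T (Y>T) and 35 had T equal to or above Y (T≥Y). The levels of these genes, and the contrasts of immune nuclei with the rest and of Y>T with T≥Y, follow from the choice and are given as a description.

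The tissue came from C57BL/6 mice of 2 groups. The 1cyc mice were sampled 4 days after a transient acute exposure to cold, their primary cold challenge, and the TN mice were housed at thermoneutrality, the ambient temperature at which the body need not burn extra fuel to stay warm. Nuclei of 5 mice per condition were pooled, sorted for the DNA stain DAPI, and made into 1 droplet library per condition, with the mouse of each nucleus not recorded. With 1 library per condition no comparison has a replicate check, the condition and the library cannot be told apart, and no test was made. Intervals in parentheses are 95% intervals that cover counting error only.

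Brown adipose tissue burns fuel to make heat, and its adipocytes lie among capillaries, nerves, fibroblasts and leukocytes. Tissue macrophages there take up debris, lipid and iron, and sit along vessels and nerves, while monocytes, neutrophils, B cells and T cells arrive from the blood. Macrophages and B cells can also present antigen to T cells on MHC class II molecules. Nuclear RNA is rich in unspliced transcripts, and a nucleus can lack cytoplasmic transcripts that a whole cell of the same type holds.

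In all, 2469900 UMIs were deposited for 4321 barcodes of 1cyc (median 378) and 2745808 UMIs for 2551 barcodes of TN (median 800). Mitochondrial genes gave a median of 22.1% of UMIs in the 1cyc library and 4.76% in the TN library, so that the limit kept 2046 barcodes (47.4%) of 1cyc and 2467 (96.7%) of TN. Immune nuclei had a median of 645.5 UMIs in 1cyc and 1578 in TN, and adipocyte nuclei had 648.5 in 1cyc and 780 in TN. The shallowest barcode had 262 UMIs in 1cyc and 500 in TN. The libraries shared 6 barcode sequences, of which 0 were immune nuclei.

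The Y>T nuclei carried the macrophage genes the rule asked for in both libraries. Y summed to between 2 and 14 UMIs (median 5) in the 15 nuclei of 1cyc, and to between 10 and 48 UMIs (median 22) in the 9 of TN. F13a1, which encodes the A subunit of coagulation factor XIII and marks a subset of tissue macrophages (GRCm38 chromosome 13, 36867178 to 37050244), had 57 UMIs in 13 of 15 1cyc nuclei and 140 in 9 of 9 TN nuclei. Mrc1, the mannose receptor (chromosome 2, 14229392 to 14332057), had 39 UMIs in 12 nuclei of 1cyc and 43 in 8 nuclei of TN. Both genes were thus spread over most Y>T nuclei of both libraries.

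The haptoglobin-haemoglobin receptor Cd163 had 7 UMIs in 6 Y>T nuclei of 1cyc and 19 in 7 of TN. The lectin Cd209b, whose family has near-identical members between which reads may be split, had 5 UMIs in 3 nuclei of 1cyc and 20 in 3 of TN. The CSF-1 receptor Csf1r, on whose signal macrophages depend for survival, had 4 UMIs in 4 nuclei of 1cyc and 8 in 6 of TN. Csf1r was therefore the sparsest of these genes by UMIs in both libraries.

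The share of nuclei with a UMI depends on depth. Mrc1 was seen in 80% of Y>T nuclei in 1cyc, with a median of 623 UMIs, and in 88.9% in TN, with a median of 2061. It was seen in 0.544% of 1cyc adipocyte nuclei and 0.229% of TN adipocyte nuclei, at medians of 648.5 and 780 UMIs. With each nucleus thinned to 500 UMIs the shares were 54.5% (6 of 11) in 1cyc and 66.7% (6 of 9) in TN for Y>T nuclei, and 0.223% in 1cyc and 0.114% in TN for adipocyte nuclei. This left out 4 Y>T and 573 adipocyte nuclei of 1cyc, which were shallower, and none of TN. The gap to the adipocyte share at either depth follows from the rule, which used Mrc1 to choose the Y>T nuclei.

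Among T≥Y nuclei, T ran from 2 to 17 UMIs (median 4) in the 11 nuclei of 1cyc and from 3 to 31 (median 11) in the 24 of TN. Dock2, a guanine exchange factor for Rac that leukocytes need to migrate (chromosome 11, 34226815 to 34783892), had 25 UMIs in 9 nuclei of 1cyc and 129 in 22 of TN. Ptprc, the phosphatase CD45 of leukocytes (chromosome 1, 138062861 to 138175708), had 22 UMIs in 9 nuclei of 1cyc and 82 in 21 of TN. These pan-leukocyte genes gave most of T, and macrophages carry both: Y>T nuclei held 25 Dock2 and 11 Ptprc UMIs in 1cyc and 45 Dock2 and 15 Ptprc UMIs in TN.

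The narrower T genes were sparse. Wdfy4, which dendritic cells use for cross-presentation and B cells also transcribe, had 2 UMIs in 2 T≥Y nuclei of 1cyc and 35 in 12 of TN. Ptpn22, a phosphatase that restrains antigen receptor signals, had 7 UMIs in 3 nuclei of 1cyc and 12 in 8 of TN. Cd226, a receptor of T and NK cells, had 3 UMIs in 2 nuclei of 1cyc and 12 in 6 of TN, and the T cell adaptor Skap1 had 4 in 2 nuclei of 1cyc and 8 in 3 of TN. Ubash3b, a phosphatase also found outside the lymphoid lineage, had 1 UMI in 1cyc and 15 in 9 nuclei of TN.

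Some members lay close to the limits of the rule. With 2 UMIs of the 12 genes from 2 genes, which is just under the limit, there were 3 barcodes in 1cyc, of which 1 had more of them than of each other sum, and 4 in TN, of which 0 did. Just inside, with 3 UMIs from 2 or more genes and above each other sum, there were 3 nuclei in 1cyc and 1 in TN. Y and T differed by at most 1 UMI in 5 nuclei of 1cyc and 3 of TN, including 2 nuclei of 1cyc with Y equal to T, so for these the class rests on 1 UMI.

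**Figure D1:**
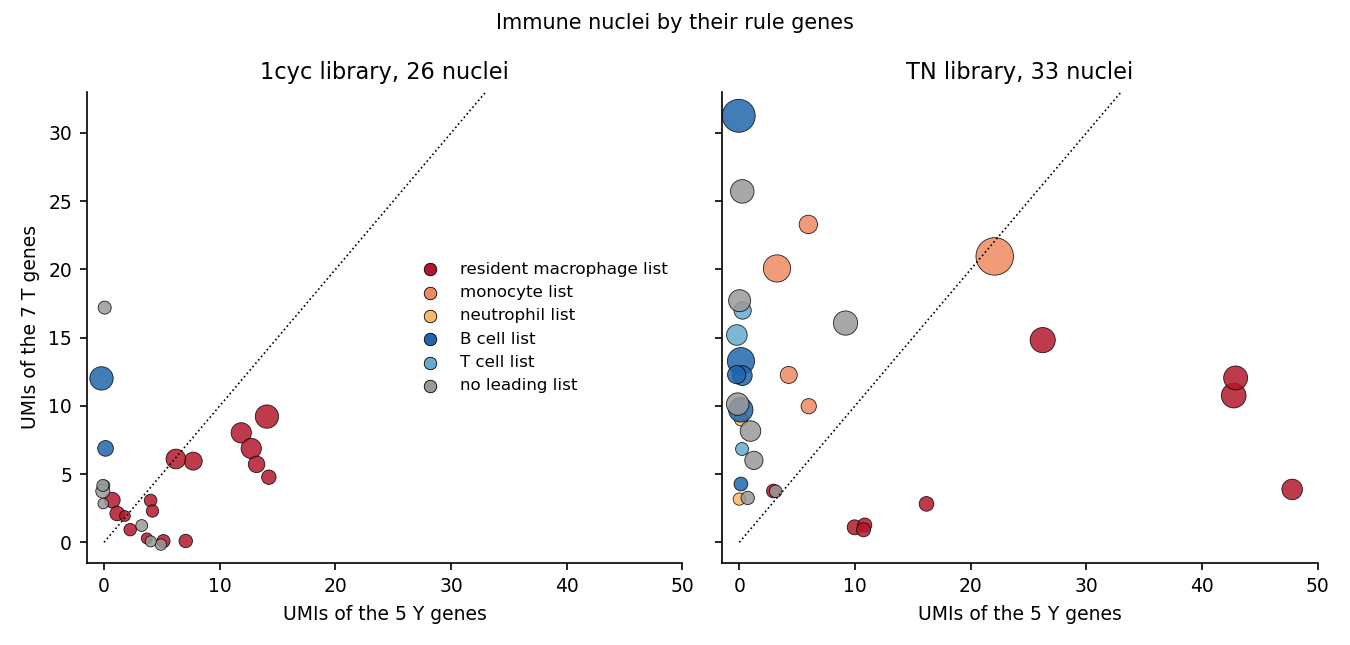
Each point is 1 immune nucleus, placed by its UMIs of the 5 Y genes (x axis) and of the 7 T genes (y axis), in the 1cyc library (left, 26 nuclei) and the TN library (right, 33 nuclei), with up to 0.3 UMIs of jitter, an area that grows with the total UMIs, and a colour for the marker list with most UMIs. Nuclei below the dotted line of equal sums are Y>T, and the 1cyc nuclei gather near the origin, where Y reached at most 14 UMIs, against 48 in TN.

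Other cell classes left few UMIs in the immune nuclei. The 59 nuclei held 0 UMIs of Pdgfra, Dcn and Lama2, and 0 of 59 allows a share of nuclei with a UMI of up to 5.08%. The endothelial rule genes had 0 UMIs in 1cyc and 7 in TN, of which 6 lay in 1 T≥Y nucleus. The adipocyte rule genes summed to 1686 CPM (UMIs scaled to 1e+06 non-mitochondrial UMIs of the class) in Y>T nuclei of 1cyc and 785 in those of TN, a ratio of 2.15 (1.10 to 4.28). In T≥Y nuclei they summed to 2079 CPM in 1cyc and 768 in TN, a ratio of 2.71 (1.47 to 4.86). Adipocyte nuclei themselves had 13613 CPM in 1cyc and 11342 in TN. Without 6 deep barcodes rich in ribosomal protein transcripts, described at the end, the ratios were 1.99 (0.949 to 4.38) in Y>T and 2.87 (1.53 to 5.31) in T≥Y. A list of other adipocyte genes, which the rule did not use, then had ratios of 1.27 (0.649 to 2.51) in Y>T and 1.22 (0.582 to 2.39) in T≥Y. With all nuclei the adipocyte rule genes were thus higher in 1cyc in both classes. Without those barcodes their interval held 1 in Y>T but not in T≥Y, while the intervals of the other list held 1 in both classes. The part of adipocyte transcripts in the comparisons that follow was not tested.

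The label was then set against marker lists that the rule did not use. A nucleus was given a leading list where 1 of the lists for resident macrophages, monocytes, neutrophils, dendritic cells, T cells, NK and innate lymphoid cells, B cells or mast cells had more UMIs than each other list, with at least 3 UMIs from at least 2 genes. Resident macrophage genes led in 12 of 15 Y>T nuclei of 1cyc and 8 of 9 of TN. The other 3 nuclei of 1cyc had no leading list, and the other nucleus of TN, with 7734 UMIs, was led by monocyte genes. The resident list holds Rbpj, which gave 105 of its 172 UMIs in Y>T nuclei of 1cyc and 95 of 196 in those of TN. Without Rbpj the list held 67 UMIs in Y>T nuclei of 1cyc and 101 in those of TN, and leading lists were not counted without it. The lists were chosen with earlier results of these data known, and the grouping after seeing the data. The lead of resident macrophage genes in most Y>T nuclei is thus a description and no independent check of the label.

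The T≥Y nuclei were not all lymphoid, and are called T≥Y throughout. In 1cyc, 2 were led by B cell genes, 1 by T cell genes and 4 by resident macrophage genes, and 4 had no leading list. In TN, 6 were led by B cell genes, 3 by T cell genes, 4 by monocyte genes, 2 by neutrophil genes and 1 by resident macrophage genes, and 8 had no leading list. Lymphocyte lists thus led in 3 of 11 T≥Y nuclei in 1cyc and 9 of 24 in TN.

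**Figure D2:**
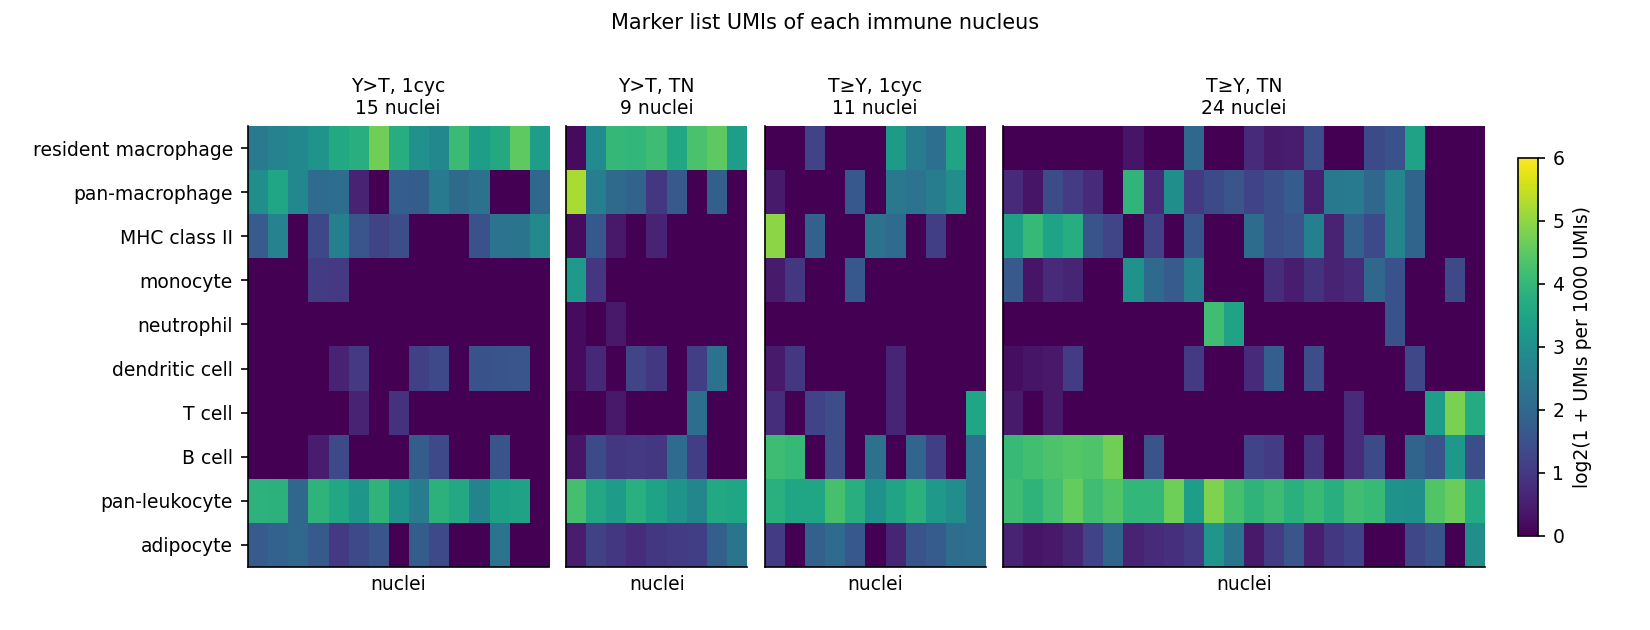
Each column is 1 immune nucleus and each row a marker list, with colour giving log2(1 + UMIs of the list per 1000 UMIs of the nucleus), in Y>T nuclei of 1cyc (15) and TN (9) and T≥Y nuclei of 1cyc (11) and TN (24), sorted within a block by leading list and then by depth. The resident macrophage row is bright in most columns of Y>T, but not in the TN nucleus of 7734 UMIs, which held 1 UMI of that list. The B cell row is bright in 2 columns of T≥Y in 1cyc and 6 in TN, and the neutrophil and T cell rows in a few others.

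The nuclei led by B cell genes were the clearest lymphoid group. The B cell list summed to 46 and 16 UMIs in the 2 of 1cyc, and to 18, 30, 38, 58, 66 and 92 UMIs in the 6 of TN. Bank1, a scaffold of B cell receptor signalling, had 5 and 6 UMIs in the 2 nuclei of 1cyc and between 6 and 17 (median 9.5) in the 6 of TN. Cd79a, a signalling chain of the B cell receptor, had 7 UMIs in 1 of the 2 nuclei of 1cyc and 33 UMIs in 4 of the 6 of TN. Ighd, the heavy chain of IgD found on naive B cells, had 7 UMIs in 2 of 2 nuclei of 1cyc and 23 in 4 of 6 of TN. All 8 nuclei had 0 UMIs of the 5 Y genes.

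The 3 nuclei of TN led by T cell genes had 36, 19 and 7 UMIs of that list. Lef1, a transcription factor of naive T cells, had between 2 and 8 UMIs in them, and Themis, which acts in T cell receptor signalling, between 1 and 5. The 1 such nucleus of 1cyc had 278 UMIs in all and 3 of the T cell list, so its name rests on few molecules. The 2 nuclei of TN led by neutrophil genes held 10 and 4 UMIs of Csf3r, the G-CSF receptor, and 0 UMIs of Y. The 4 nuclei of TN led by monocyte genes had 3 to 6 UMIs of Y and 10 to 23 of T, and so met the T≥Y condition. Their Y UMIs were only of Csf1r in the nucleus of 3900 UMIs, and only of F13a1 in those of 1578 and 1293 UMIs. The nucleus of 970 UMIs held 4 UMIs of F13a1 and 2 of Mrc1.

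Immune nuclei had like shares of the barcodes under the mitochondrial limit in both libraries. They were 26 of 2046 barcodes in 1cyc (1.27%, 0.832 to 1.86, exact Clopper-Pearson intervals here and below) and 33 of 2467 in TN (1.34%, 0.923 to 1.87), a ratio of 0.95 (0.546 to 1.64). Fibroblast nuclei, chosen by mirrored rules, were 2.25% of barcodes in 1cyc and 5.11% in TN, a ratio of 0.440 (0.307 to 0.622). Endothelial nuclei were 1.56% in 1cyc and 5.63% in TN, a ratio of 0.278 (0.183 to 0.410). The interval of the immune ratio holds 1, while those of the other two classes lie below it. The immune ratio moved in both directions with the choices of the rule. It was 0.418 (0.25 to 0.688) with no mitochondrial limit, at 0.671% in 1cyc and 1.61% in TN. It was 0.618 (0.229 to 1.53) at a limit of 5%, with 0.738% in 1cyc and 1.19% in TN, and 0.603 (0.301 to 1.16) where 5 immune UMIs were asked for, with 0.733% in 1cyc and 1.22% in TN. At a limit of 10% it was 1.36 (0.729 to 2.54), with 1.54% in 1cyc and 1.13% in TN. Among barcodes of at least 500 UMIs it was 1.23 (0.654 to 2.26), with 1.65% in 1cyc and 1.34% in TN. With nuclei thinned to 500 UMIs before the rule it was 1.41 (0.689 to 2.81), with 1.37% in 1cyc and 0.973% in TN.

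Y>T nuclei were 15 barcodes of 1cyc (0.733%, 0.411 to 1.21) and 9 of TN (0.365%, 0.167 to 0.691), a ratio of 2.01 (0.824 to 5.21). T≥Y nuclei were 11 of 1cyc (0.538%, 0.269 to 0.960) and 24 of TN (0.973%, 0.624 to 1.44), a ratio of 0.553 (0.244 to 1.17). Y>T therefore made up 57.7% of immune nuclei in 1cyc (36.9 to 76.6) and 27.3% in TN (13.3 to 45.5), and these intervals overlap. The mitochondrial limit and the depth gap can both set these shares. With Ptprc and Dock2, which macrophages also transcribe, left out of the class decision, the split was 73.1% in 1cyc and 51.5% in TN. With nuclei thinned to 500 UMIs before the rule was applied, it was 80.0% (12 of 15) in 1cyc and 33.3% (8 of 24) in TN, and the direction was the same in each case.

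Of 941 genes with at least 20 UMIs over both classes, 137 (14.6%) were at least 2-fold higher in Y>T than in T≥Y nuclei and 179 (19%) at least 2-fold lower, and 10 of the 941, 4 of the higher and 3 of the lower were genes of the rule itself. The classes were cut from transcripts of the same nuclei, so these values describe them. The resident macrophage list summed to 368 UMIs in Y>T and 49 in T≥Y, a ratio of 11.2 (8.28 to 15.4). The B cell list summed to 27 UMIs in Y>T and 403 in T≥Y, a ratio of 0.0997, and 0.216 (0.135 to 0.333) without 6 deep barcodes rich in ribosomal protein transcripts, which are described at the end. The pan-macrophage list had a ratio of 3.87, and 1.30 (0.937 to 1.81) without those barcodes, so its height in Y>T rested mainly on them.

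Rbpj, the DNA-binding factor of Notch signalling (chromosome 5, 53466152 to 53657362), was the most abundant of the leading Y>T genes that most nuclei shared. It had between 0 and 29 UMIs (median 4) in the 15 Y>T nuclei of 1cyc and between 0 and 24 (median 11) in the 9 of TN, with a UMI in 14 nuclei of 1cyc and 8 of TN. It had between 0 and 12 UMIs (median 0) in the T≥Y nuclei of 1cyc and between 0 and 4 (median 0) in those of TN. The pooled level was 5665 CPM in Y>T and 514 CPM in T≥Y, a ratio of 11.03 (7.36 to 17.2), and 83.3 CPM in adipocyte nuclei. Rbpj was higher in Y>T than in T≥Y nuclei in each library, though the ranges of single nuclei overlap.

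The other leading genes of Y>T were lower in count. Maf, a transcription factor of resident macrophages, had 15 UMIs in Y>T of 1cyc and 19 in Y>T of TN, and 2 in T≥Y of 1cyc and 1 in T≥Y of TN, a ratio of 16.9 (5.31 to 85.9). Dab2, an endocytic adaptor, had 17 in Y>T of 1cyc and 33 in Y>T of TN, and 7 in T≥Y of 1cyc and 1 in T≥Y of TN, a ratio of 9.30 (4.38 to 22.7). Both genes were seen mainly in Y>T nuclei, in both libraries.

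Frmd4b, a scaffold of cell polarity proteins, had 54 UMIs in Y>T and 5 in T≥Y, a ratio of 16.1 (6.48 to 51.5). The growth factor Pdgfc had 20 UMIs in Y>T and 1 in T≥Y, a ratio of 29.8 (4.76 to 1234). Plekhg5, a guanine exchange factor of small GTPases, had 23 UMIs in Y>T, with 9 in 1cyc and 14 in TN, and 0 in T≥Y. Dse, Itsn1, Wwp1 and Psd3 were also among the 12 genes ranked highest, as was Lyz2, of whose 201 UMIs in Y>T 193 lay in 1 nucleus described further on.

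The genes ranked lowest in Y>T relative to T≥Y were mainly B cell genes. Cd79a had 0 UMIs in Y>T and 40 in T≥Y, Cd79b 0 in Y>T and 26 in T≥Y, Ighd 0 in Y>T and 30 in T≥Y, and the lambda constant gene Iglc2, which has near-identical copies, 0 in Y>T and 32 in T≥Y. Bach2, which holds back plasma cell formation, had 2 UMIs in Y>T and 70 in T≥Y, a ratio of 0.0425 (0.00505 to 0.159). The lymphocyte transcription factor genes Ikzf3 and Ets1 had 0 UMIs in Y>T, against 28 and 24 in T≥Y, and the inhibitory receptor gene Btla had 0 in Y>T and 26 in T≥Y. Ebf1 had 8 UMIs in Y>T and 130 in T≥Y, and besides founding the B cell lineage it is transcribed by adipocytes, which held 3847 CPM here. The cytoskeletal gene Ablim1 had 0 UMIs in Y>T and 27 in T≥Y, and 675 CPM in adipocyte nuclei.

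Most UMIs of several of these genes lay in deep barcodes rich in ribosomal protein transcripts. Of the T≥Y UMIs these barcodes held 37 of 40 of Cd79a, 24 of 26 of Cd79b, 25 of 30 of Ighd, 30 of 32 of Iglc2 and 23 of 28 of Ikzf3. They held fewer of Bach2, with 20 of 70, and of Ebf1, with 74 of 130, whose ratios without them were 0.0488 (0.00575 to 0.186) for Bach2 and 0.174 (0.0718 to 0.368) for Ebf1.

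Cd74, the chaperone of MHC class II, had 11 UMIs in Y>T and 174 in T≥Y, a ratio of 0.0941 (0.0461 to 0.173). Most of the T≥Y UMIs lay in a few deep barcodes rich in ribosomal protein transcripts. Without the 6 immune barcodes of that kind, Cd74 had 10 UMIs in Y>T and 24 in T≥Y, a ratio of 0.508 (0.217 to 1.10), so most of this difference rested on them.

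**Figure D3:**
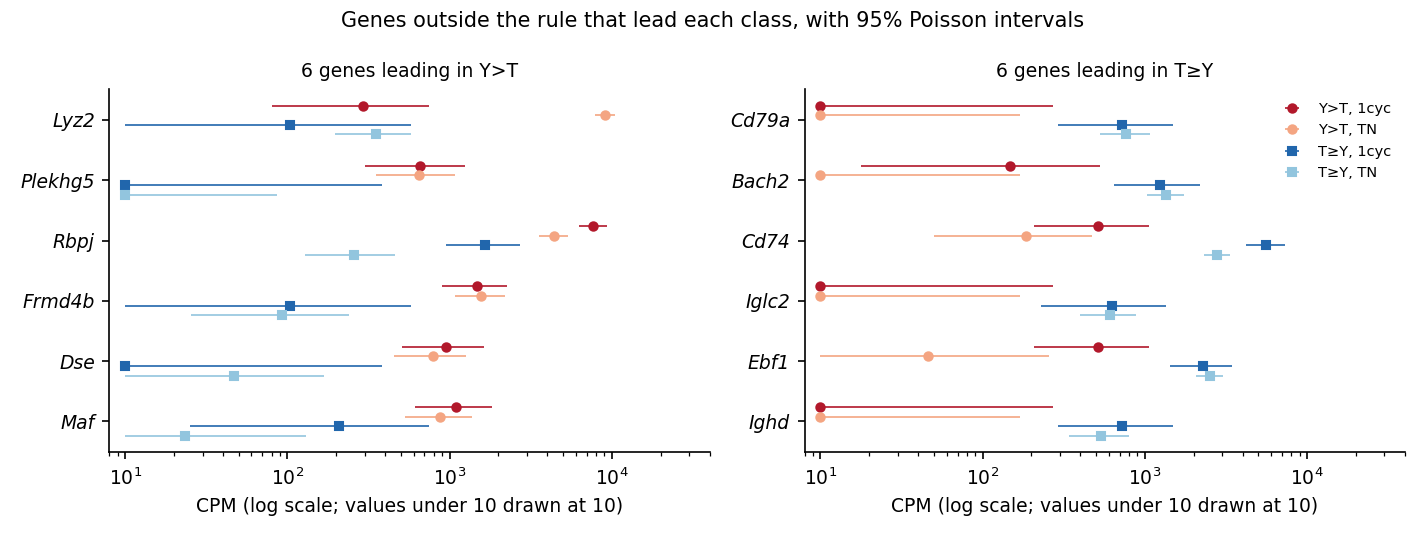
CPM on a log scale (x axis, values under 10 drawn at 10) of the 6 genes outside the rule ranked highest in Y>T (left) and in T≥Y (right), for Y>T nuclei of 1cyc and TN (circles) and T≥Y nuclei of 1cyc and TN (squares), with 95% Poisson intervals. Rbpj sits highest of the left panel in Y>T of 1cyc, Lyz2 stands out in Y>T of TN only, and 3 genes of the right panel had 0 UMIs in Y>T of both libraries.

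Between the conditions, 221 genes had at least 20 UMIs in Y>T nuclei, of which 29 (13.1%) were at least 2-fold higher in 1cyc than in TN and 61 (27.6%) at least 2-fold lower, with a median log2 ratio of -0.09. The 7734-UMI nucleus of TN held 34.4% of all UMIs of the TN Y>T nuclei and decided much of the lower side. All 29 ribosomal protein genes that reached 20 UMIs were among the 61 lower ones. Without that nucleus 135 genes reached 20 UMIs, of which 13 (9.63%) were higher in 1cyc and 12 (8.89%) lower. Values without it are therefore given beside the main ratios of Y>T nuclei below. Of the 221 genes 6 were genes of the rule, with 0 among the higher and 1 among the lower, and 2 of the 12 lower ones without that nucleus were Cd163 and Cd209b of the rule.

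MHC class II genes stood higher in Y>T nuclei of 1cyc, with and without that nucleus. They summed to between 0 and 10 UMIs (median 2) in the 15 nuclei of 1cyc, with a UMI in 11, and to between 0 and 7 UMIs (median 0) in the 9 of TN, with a UMI in 4. The sums were 32 UMIs or 2346 CPM (1605 to 3312) in 1cyc and 10 UMIs or 462 CPM (221 to 849) in TN, a ratio of 5.08 (2.44 to 11.6), and 3.69 (1.72 to 8.78) without the 7734-UMI nucleus. The nuclei of 1cyc were the shallower ones, and the UMI ranges of single nuclei overlap. Adipocyte nuclei held 20.4 CPM of the list in 1cyc and 14.6 in TN.

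The members of the list pointed the same way, at low counts. The class II alpha chain gene H2-Aa (chromosome 17, 34282744 to 34287823) had 9 UMIs in Y>T nuclei of 1cyc and 3 in those of TN, and the beta chain gene H2-Eb1 had 8 in 1cyc and 0 in TN. Cd74 had 7 in 1cyc and 4 in TN. The class II transactivator Ciita, which switches these genes on, had 3 in 1cyc and 1 in TN, the peptide-loading gene H2-DMb1 had 3 in 1cyc and 1 in TN, and H2-Ab1 had 2 in 1cyc and 1 in TN. None of them reached 20 UMIs in Y>T nuclei, so none was counted alone, and H2 genes resemble each other closely enough that reads may be split between them.

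The named genes ranked highest in 1cyc over TN in Y>T nuclei were Tmcc3, Kpna1, Cmah, Hdac9, Pid1 and Cd36. Above them ranked the unnamed gene model Gm48099, singled out after its values were seen, with 79 UMIs in 1cyc and 15 in TN, a ratio of 8.37 (4.78 to 15.6), and 6.30 (3.48 to 12.3) without the 7734-UMI nucleus. Its level in adipocyte nuclei was also higher in 1cyc, at 4352 CPM against 1843 CPM in TN, and the part of adipocyte RNA in its ratio was not tested. Pid1, a phosphotyrosine-binding adaptor known for reducing insulin-stimulated glucose uptake in adipocytes and muscle cells (chromosome 1, 84036296 to 84364180), had between 0 and 23 UMIs (median 2) in the nuclei of 1cyc and between 1 and 15 (median 3) in those of TN. Its level was 4985 CPM in 1cyc and 1846 CPM in TN, a ratio of 2.70 (1.80 to 4.10), and 2.07 (1.35 to 3.23) without the 7734-UMI nucleus. Adipocyte nuclei had 271 CPM in 1cyc and 340 in TN. Nuclei of 1cyc and TN overlap, with the highest single nucleus in 1cyc. Of the 68 UMIs of Pid1 in 1cyc, 23 and 17 lay in 2 nuclei, of 2000 and 2745 UMIs. In TN, 15 of its 40 UMIs lay in a nucleus of 3272 UMIs. The ratio without these nuclei was not taken.

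Hdac9, a class IIa histone deacetylase, had 31 UMIs in 9 of 15 nuclei of 1cyc and 14 in 8 of 9 of TN, a ratio of 3.52 (1.82 to 7.16), and 2.47 without the 7734-UMI nucleus. Cmah, the enzyme that makes the sialic acid Neu5Gc in mice, had 17 UMIs in 6 nuclei of 1cyc and 5 in 4 of TN, a ratio of 5.40 (1.91 to 18.7), and 3.52 (1.25 to 12.2) without that nucleus. Both genes were low in adipocyte nuclei, with Cmah at 7.66 CPM in 1cyc and 5.71 in TN, and Hdac9 at 17.0 in 1cyc and 26.0 in TN.

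The other 3 genes were also seen in adipocyte nuclei, as was Pid1. Cd36, a fatty acid and scavenger receptor of macrophages, capillaries and adipocytes, had between 0 and 8 UMIs (median 1) in the nuclei of 1cyc and between 0 and 3 (median 0) in those of TN, a ratio of 3.47 (1.63 to 7.84), and 2.26 (1.07 to 5.11) without the 7734-UMI nucleus. Adipocyte nuclei held 1479 CPM of Cd36 in 1cyc and 1560 in TN, close to the 1759 CPM of Y>T nuclei of 1cyc, against 508 CPM in those of TN. Kpna1, an importin alpha of nuclear import, had 17 UMIs in 1cyc and 3 in TN, a ratio of 9.0 (2.60 to 47.9), and 8.81 (2.09 to 78.6) without that nucleus, while adipocyte nuclei had 702 CPM in 1cyc and 352 in TN. Tmcc3, which encodes a membrane protein of the endoplasmic reticulum, had 18 UMIs in 1cyc and 2 in TN, a ratio of 14.3 (3.42 to 127), and 18.7 (2.95 to 777) without that nucleus, while adipocyte nuclei had 129 CPM in 1cyc and 175 in TN. Adipocyte rule genes were also higher in Y>T nuclei of 1cyc, at 1686 CPM against 785 in TN, and against 849 in TN without that nucleus. Their ratio without it was 1.99 (0.949 to 4.38). The part of adipocyte RNA in the ratios of Pid1, Cd36, Kpna1 and Tmcc3 was not tested.

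Ranked with all nuclei, the genes lowest in 1cyc over TN in Y>T nuclei rested on the 7734-UMI nucleus. Lyz2, the lysozyme of macrophages, which has the near-identical copy Lyz1 (chromosome 10, 117277331 to 117282321), had 4 UMIs in 1cyc and 197 in TN, with 193 of these in that nucleus. Tmsb4x had 2 in 1cyc and 83 in TN, with 80 of these in it, and Tpt1 had 0 in 1cyc and 47 in TN, with 46 in it. Fcer1g, the shared gamma chain of Fc receptors, had 0 in 1cyc and 33 in TN, with 32 in it, and Fau and Tmsb10 had 1 each in 1cyc and 60 each in TN. Of the 12 lower genes without that nucleus, 10 were outside the rule. Among them Aoah had 4 UMIs in 1cyc and 18 in TN, a ratio of 0.230 (0.0567 to 0.699). Fli1 had 8 in 1cyc and 26 in TN, a ratio of 0.319 (0.125 to 0.725), and Nrp1 had 7 in 1cyc and 23 in TN, a ratio of 0.316 (0.114 to 0.759).

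Among genes of the rule, Cd163 had a ratio of 0.382 (0.136 to 0.949) and Cd209b of 0.259 (0.0760 to 0.712) without that nucleus. F13a1 had 57 UMIs in 1cyc and 118 in TN without it, a ratio of 0.501 (0.358 to 0.693), and 0.647 (0.467 to 0.886) with all nuclei. Mrc1, also of the rule, had a ratio of 1.44 (0.909 to 2.28) with all nuclei and 0.940 without that nucleus. The macrophage genes of the rule summed to 8211 CPM in 1cyc and 10616 in TN, a ratio of 0.773 (0.611 to 0.974), and 0.558 (0.440 to 0.706) without it. These genes chose the nuclei, whose median depth was 623 UMIs in 1cyc and 2061 in TN.

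Most other macrophage lists lay closer to 1 once that nucleus was left out. Resident macrophage genes summed to 172 UMIs or 12609 CPM in 1cyc and 196 UMIs or 9046 CPM in TN, a ratio of 1.39 (1.13 to 1.72), but 0.914 (0.741 to 1.13) without it. Rbpj gave 105 of the UMIs in 1cyc and 95 in TN, and its own ratio without it was 1.15 (0.860 to 1.53). Pan-macrophage genes summed to 39 UMIs in 1cyc and 325 in TN, of which 285 were in that nucleus, and their ratio was 0.191 with it and 1.01 without it. Scavenger and phagocytic receptors had a ratio of 1.45 (1.04 to 2.02), and 1.07 without it, and iron and haem genes 0.479, and 0.976 without it. Lysosome genes had a ratio of 0.749 (0.538 to 1.03), and 0.824 (0.573 to 1.18) without it. The lipid-associated macrophage list had a ratio of 2.16 (1.25 to 3.78), and 2.94 (1.48 to 6.23) without it. Cd36, which adipocytes share, gave 24 of the 34 UMIs of the list in 1cyc and 11 of 25 in TN. Without that nucleus it gave 11 of 12 in TN. The ratio of the list without Cd36 was not taken.

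**Figure D4:**
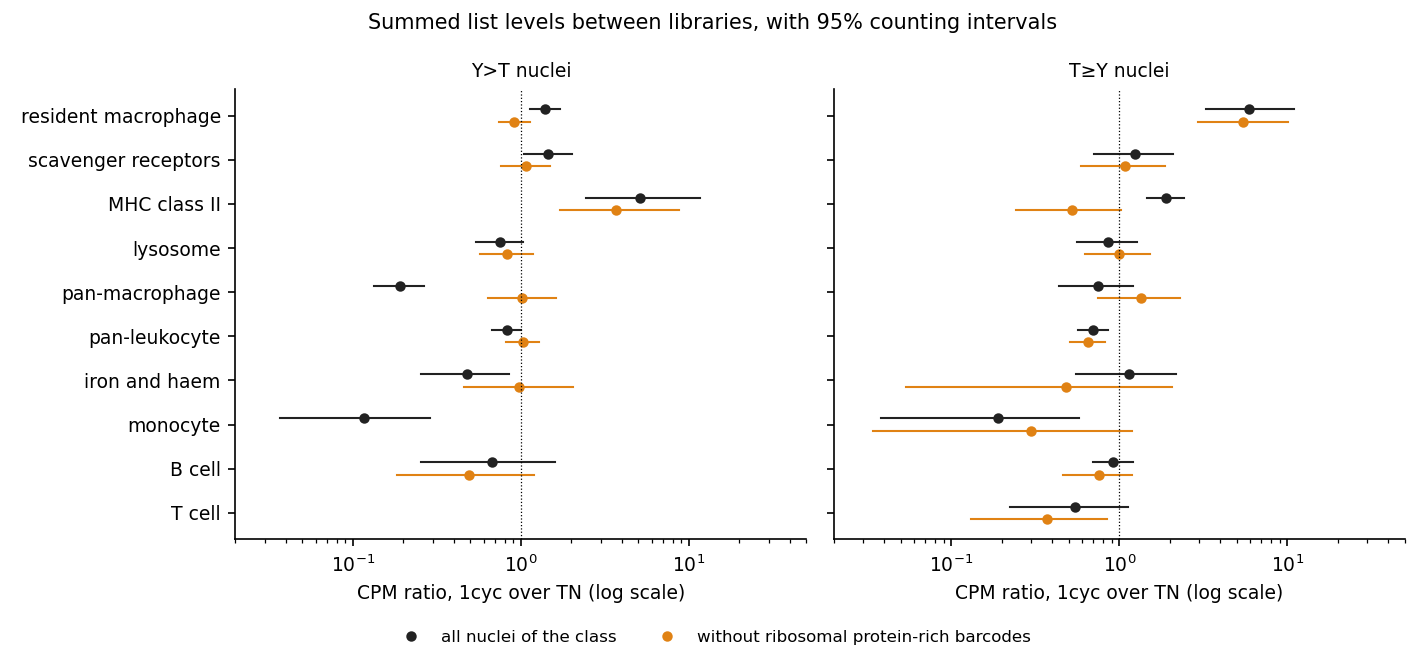
Ratio of the summed CPM of each list, 1cyc over TN, on a log scale (x axis) with 95% counting intervals, in Y>T nuclei (left) and T≥Y nuclei (right), for all nuclei of the class (black) and without ribosomal protein-rich barcodes (orange). Lists with under 10 UMIs are not drawn. In Y>T nuclei the MHC class II list stays above 1 in both versions (5.08 and 3.69), while the pan-macrophage list moves between 0.191 and 1.01.

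In T≥Y nuclei 400 genes had at least 20 UMIs, of which 44 (11%) were at least 2-fold higher in 1cyc than in TN and 78 (19.5%) at least 2-fold lower, with a median log2 ratio of -0.16. The make-up of the class differed between the libraries, with resident macrophage genes leading in 4 of 11 nuclei of 1cyc and 1 of 24 of TN. Resident macrophage genes summed to 28 UMIs in 1cyc and 21 in TN, a ratio of 5.95 (3.26 to 11.03). Rbpj alone had 16 UMIs in 1cyc and 11 in TN, a ratio of 6.49 (2.83 to 15.5), with 12 of the 16 in 1 nucleus in which Y equalled T. These ratios therefore rest on nuclei at the border between the classes. With nuclei thinned to 500 UMIs before the rule the list and Rbpj were lower in 1cyc. That change rests on 1 UMI of each in 1cyc, against 36 of the list and 18 of Rbpj in TN, so it sets no direction.

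Zeb2, a transcription factor of macrophages, dendritic cells and effector lymphocytes, had between 0 and 12 UMIs in T≥Y nuclei of 1cyc and between 0 and 21 in those of TN, with 36 UMIs in 7 nuclei of 1cyc and 59 in 14 of TN. Its level was 3743 CPM in 1cyc and 1374 in TN, a ratio of 2.72 (1.75 to 4.19), but near 1 with nuclei thinned to 500 UMIs before the rule. Zeb2 was also seen in 33.1% of adipocyte nuclei of 1cyc and 49.4% of those of TN. Plcl2, Peak1 and Psd3 had 13, 12 and 14 UMIs in 1cyc and 15, 9 and 14 in TN, with ratios of 3.87, 5.95 and 4.47. Adipocyte nuclei held 13.8 CPM of Plcl2, 470 of Peak1 and 116 of Psd3. The RNA-binding gene Qk had 13 UMIs in 9 nuclei of 1cyc and 17 in 12 of TN, a ratio of 3.41, at 1559 CPM in adipocyte nuclei. The part of adipocyte RNA in the ratios of these genes was not tested.

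The summed pan-leukocyte genes were lower in T≥Y nuclei of 1cyc. Of 25 pan-leukocyte genes 15 reached 20 UMIs, of which 0 were at least 2-fold higher in 1cyc and 6 lower, against 11% and 19.5% of all genes. Without the ribosomal protein-rich barcodes 12 reached it, of which 1 was higher and 3 lower, against 14.8% and 21.9% of all genes, which is near that share. The list summed to 117 UMIs in 1cyc and 746 in TN, a ratio of 0.700 (0.571 to 0.852). Arhgap15, a Rac regulator of blood cells, had 19 UMIs in 8 of 11 nuclei of 1cyc and 173 in 21 of 24 of TN, a ratio of 0.490 (0.288 to 0.789). Dock10, a guanine exchange factor of lymphocytes, had 2 UMIs in 1cyc and 49 in 16 nuclei of TN, a ratio of 0.182 (0.0215 to 0.694). Plekhm3 had 0 in 1cyc and 25 in 13 nuclei of TN. The cell adhesion gene Alcam had 3 in 1cyc and 54 in 12 nuclei of TN, a ratio of 0.248 (0.0496 to 0.765). Inpp4b and S100a6 leaned on 1 nucleus each, Inpp4b with 2 UMIs in 1cyc and 44 in TN, 22 of them in 1 nucleus, and S100a6 with 0 in 1cyc and 24 in TN, 23 of them in 1 nucleus.

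The B cell list summed to 69 UMIs in T≥Y nuclei of 1cyc and 334 in those of TN, a ratio of 0.922, and the T cell list to 8 in 1cyc and 66 in TN, a ratio of 0.541. With the ribosomal protein-rich barcodes left out the ratios were 0.755 (0.461 to 1.19) for the B cell list and 0.369 (0.131 to 0.849) for the T cell list. Most T cell list UMIs of TN lay in 3 nuclei, with 36, 19 and 7. Of the 8 B cell genes tested 1 was at least 2-fold higher in 1cyc and 0 lower, beside 11% higher and 19.5% lower of all 400 genes. Without the ribosomal protein-rich barcodes 2 were tested, with 0 higher and 0 lower, so these counts are too small to read. Neutrophil genes had 0 UMIs in 1cyc and 17 in TN. MHC class II genes summed to 94 UMIs in 1cyc and 222 in TN, a ratio of 1.89 (1.47 to 2.42), but 84 of the 94 lay in 1 B cell gene-led barcode, and without the ribosomal protein-rich barcodes the log2 ratio was -0.93. Outside those barcodes, MHC class II genes were thus higher in 1cyc in Y>T but not in T≥Y nuclei, a difference that was not tested.

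Deep barcodes rich in ribosomal protein transcripts were found mainly among the immune nuclei. At a limit of at least 5% of UMIs, chosen after the values were seen, there were 8 such barcodes under the mitochondrial limit, 3 in 1cyc and 5 in TN, and 6 of them were immune. Their shares in immune nuclei were 12.8% in 1cyc (1 barcode) and 7.87, 13.6, 14.2, 14.8 and 15.9% in TN (5 barcodes), while no other immune nucleus passed 1.17%. None was among the 3220 adipocyte nuclei (which allows up to 0.0932%), the 172 fibroblast nuclei (up to 1.74%) or the 171 endothelial nuclei (up to 1.75%). The other 2 were shallow 1cyc barcodes with 328 and 283 UMIs that did not meet the immune rule.

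The 6 barcodes fell into B cell gene-led and monocyte gene-led ones. Those led by B cell genes were T≥Y barcodes of 2772 UMIs in 1cyc and of 5884, 3865 and 3050 UMIs in TN. The barcode of 1cyc held 52 UMIs of Cd74 and 7 of Cd79a. Those led by monocyte genes were the T≥Y barcode of TN with 3900 UMIs, which held 13 UMIs of Lyz2 and 16 of Plac8, and the Y>T barcode of TN with 7734 UMIs, which held 193 UMIs of Lyz2 and 18 of Ccr2, the receptor by which monocytes leave the marrow. The 7734-UMI barcode held 52 UMIs of the nuclear RNA Malat1, the lowest count among the 9 Y>T nuclei of TN, whose median was 156. They held 27.2% of the UMIs of T≥Y nuclei in 1cyc, 36.3% of those of T≥Y nuclei in TN and 34.4% of those of Y>T nuclei in TN.

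**Figure D5:**
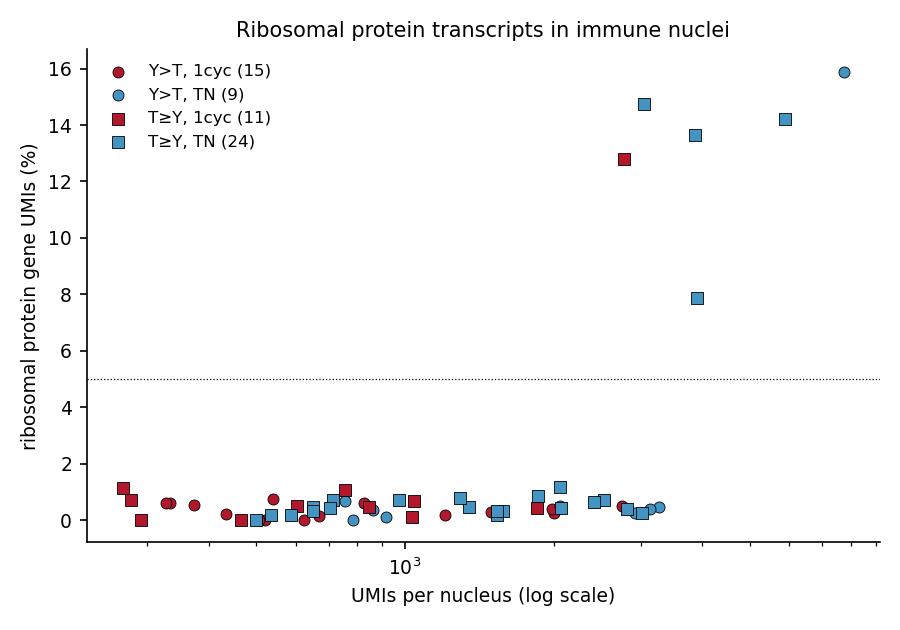
Share of UMIs from ribosomal protein genes (y axis, %) against UMIs per nucleus (x axis, log scale) for the 59 immune nuclei, in Y>T (circles) and T≥Y (squares) of 1cyc (red) and TN (blue), with a dotted line at 5%. The 6 barcodes above the line have 2772 to 7734 UMIs, and all other nuclei lie at or below 1.17%.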

How the data were processed

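Single-nucleus RNA of brown adipose tissue was measured in 1 pooled library per condition. The deposited UMI counts per gene and barcode were made by the authors with Cell Ranger 3 on mm10, per the submitters' processing notes (3.1.0 per the file headers), and filtered to barcodes, per the series' design text. The annotation and the handling of introns, not given in the sources used here, could change counts per gene. From these counts, nuclei were chosen by the rule in the report, UMIs were summed per class and library, and CPM were taken over non-mitochondrial UMIs. Ratios have exact conditional binomial intervals, sums exact Poisson and shares exact Clopper-Pearson intervals, all 95% and for counting error only, since amplified reads of 2 pooled libraries give no spread between mice. Genes needed 20 UMIs over both groups and were counted at 2-fold. The computation was tested on simulated data.

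Named genes were those of the rule, the up to 6 members of each list with most UMIs (at least 10) in immune nuclei, and genes ranked by the interval bound nearest to 1: 12 on each side between classes, 12 for immune nuclei over the rest, and 6 on each side between conditions. Gene models without a name, like mitochondrial, haemoglobin and ribosomal protein genes, were counted but not named by rank. Some ranked genes are not reported here. Others named were chosen after their values were seen. Members, the 26 lists other than the rule sums and the comparisons were chosen with earlier results of these data known, and the leading-list grouping and the 5% ribosomal limit after seeing the data. 1 list gene, Clec7a, was not analysed here. Doublets were not removed. Scrublet in scanpy 1.11.5 called 0.196% of 1cyc and 0.567% of TN barcodes and 0 immune nuclei, and leaving its calls out was an alternative. Python 3.11.15, numpy 2.4.6, scipy 1.17.1 and pandas 2.3.3 were used, with R 4.3.3 and edgeR 4.0.16 for scaling factors only. Positions are GENCODE M21 (GRCm38, which is mm10), where 30934 of 31053 gene IDs matched.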

Additional observations from a re-analysis of the deposited data

Results flagged for a closer look

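Barcodes over the mitochondrial limit, which no comparison used, also held immune transcripts. Of the 2275 such barcodes of 1cyc, 3 met the rest of the immune rule (0.132%, 0.0272 to 0.385), and of the 84 of TN, 8 did (9.52%, 4.2 to 17.9), above the 3.57% that a count of 0 would allow. All were T≥Y. The 8 of TN had 562 to 1842 UMIs (median 1033) and between 20.7% and 40.4% mitochondrial UMIs. Of these 8, 1 was led by T cell genes, with 26 UMIs of the T cell list and 13 of the NK and innate lymphoid list, 1 by resident macrophage genes, and 6 had no leading list. Of the 3 of 1cyc, 1 was led by resident macrophage genes and 2 had no leading list. With no limit, immune nuclei were 0.671% of all 1cyc barcodes and 1.61% of all TN barcodes.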

How the results depend on the processing

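No paired analysis was possible because the labels give 1 sample per group with no replicate numbers, and no replicate could be left out. Scaling to all UMIs, without haemoglobin, by TMM or RLE, and leaving out doublet calls, moved no result by more than its counting interval or 1.5 times. The share of immune nuclei in 1cyc was 0.738% at a 5% mitochondrial limit (1.19% in TN), 0.671% with none (1.61% in TN) and 0.733% when 5 UMIs were asked for (1.22% in TN). The share of Y>T was 80.0% in 1cyc with the rule at 500 UMIs and 51.5% in TN without Ptprc and Dock2.

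Counts of genes at 2-fold moved as follows, given as higher, then lower. For Y>T over T≥Y they were 78 and 96 at the 5% limit, 339 and 458 at 10 UMIs per gene, and 26 and 32 at 50, with 93 lower under the rule at 500 UMIs and 72 without ribosomal protein-rich barcodes. For 1cyc over TN in Y>T they were 10 and 14 under the rule at 500 UMIs, 49 and 104 without Ptprc and Dock2, 13 and 12 without ribosomal protein-rich barcodes, 127 and 159 at 10 UMIs and 2 and 4 at 50, with 17 higher at the 5% limit. In T≥Y they were 20 and 27 at the 5% limit, 28 and 49 under the rule at 500 UMIs, 25 and 37 without ribosomal protein-rich barcodes, 170 and 368 at 10 UMIs and 7 and 12 at 50, with 28 higher at the 10% limit and 37 lower without Ptprc and Dock2. Fewer genes were tested at 50 UMIs and fewer nuclei under the stricter rules.

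Values that changed sign are log2 ratios, and other causes were not tested. In Y>T over T≥Y, the monocyte list was -1.5 under the rule at 500 UMIs, -1.52 without ribosomal protein-rich barcodes and -1.12 with nuclei weighted equally, the cell cycle list 0.027 under the rule at 500 UMIs, and the endothelial list 0.074 without Ptprc and Dock2. In Y>T, 1cyc over TN, the rule at 500 UMIs gave Lyz2 0.50, the resident macrophage list -0.22 and the pan-macrophage list 0.33. Without ribosomal protein-rich barcodes they were 0.052, -0.13 and 0.015, with the monocyte list at 0.79, and with equal weights the resident macrophage list was -0.16. In T≥Y, the rule at 500 UMIs gave Rbpj -0.53, Zeb2 -0.014, resident macrophage genes -1.53 and MHC class II genes -2.32. In 1cyc these values rest on 1 UMI of Rbpj, 5 of Zeb2, 1 of resident macrophage genes and 2 of MHC class II genes. The class decision without Ptprc and Dock2 gave Psd3 -0.41 and resident macrophage genes -0.18, and the 5% limit gave Alcam 0.38, each from 1 UMI in 1cyc. Leaving out ribosomal protein-rich barcodes gave MHC class II genes -0.93, from 10 UMIs in 1cyc and 74 in TN. In Y>T, MHC class II genes stayed between 1.38 and 3.20 under all alternatives that gave a value. Depth limits all of this: most genes named had under 50 UMIs in a class.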

Other observations

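Against all other barcodes, 2824 of 10656 genes (26.5%) were at least 2-fold higher in immune nuclei. The genes ranked highest outside the rule were shared leukocyte, B cell and monocyte genes: Lyz2 had 217 UMIs in immune nuclei and 10 in the rest, Cd74 had 185 in immune nuclei and 18 in the rest, and the NADPH oxidase subunit Cybb had 54 in immune nuclei and 4 in the rest. Mir142hg, host of a microRNA of blood cells, had 64 UMIs in immune nuclei and 6 in the rest, and the actin-binding gene Coro1a had 29 in immune nuclei and 1 in the rest. Cd52, Ly86, Laptm5 and Iglc2 completed the 12. The B cell genes Ighd, Cd79b and Ly6d had 30, 26 and 20 UMIs in immune nuclei and 0 each in the rest. The immune rule chose these nuclei, so the values describe them. Most UMIs of several of these genes lay in the 6 ribosomal protein-rich barcodes. Those barcodes held 193 of 201 Lyz2 UMIs of Y>T nuclei. Of the T≥Y UMIs they held 150 of 174 of Cd74, 51 of 55 of Cd52 and 19 of 20 of Ly6d, but 28 of 54 of Mir142hg and 11 of 22 of Cybb. The ranking without them was not taken.

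Some T≥Y nuclei without a leading list carried genes of narrower myeloid states. A TN nucleus of 2817 UMIs held 7 of the 10 UMIs of Clec9a, a receptor of type 1 dendritic cells, and 10 UMIs of Wdfy4. A TN nucleus of 2529 UMIs held 33 UMIs of the lipid-associated macrophage list, with 11 of Cd36 and 8 of the macrophage elastase Mmp12, and 36 of lysosome genes. Mmp12 also had 4 UMIs in a 1cyc nucleus of 756 UMIs. A 1cyc nucleus of 604 UMIs held 17 UMIs of T with no leading list. Lists of other functions were sparse in Y>T nuclei: cytokines and chemokines had 20 UMIs in 1cyc and 34 in TN, noradrenaline handling 2 in 1cyc and 10 in TN, and cell cycle genes 2 in 1cyc and 1 in TN. These nuclei and genes were chosen after their values were seen.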
